A study of Mus musculus with 15 samples.

Results

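ATF4 is the transcription factor of the integrated stress response, through which cells react to a shortage of amino acids, to misfolded protein in the endoplasmic reticulum and to lack of heme. Kinases that sense these stresses phosphorylate the translation factor eIF2alpha. General protein synthesis then falls, while translation of the Atf4 mRNA rises. ATF4 protein, together with C/EBP partners, switches on genes for amino acid synthesis, amino acid import and tRNA charging, and genes that end the response or promote cell death. The level of Atf4 mRNA measured by RNA-seq is therefore a single layer of its control. The genes described here are 10 members of this response, picked by name: the regulators Atf4, Ddit3 and Trib3, the amino acid enzymes Asns, Psat1 and Phgdh, the transporter subunits Slc7a5 and Slc3a2, and the stress outputs Chac1 and Sesn2. All 10 were found among the 37583 genes of the count tables, and all 10 passed the filter on low counts that left 14652 genes for testing.

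The RNA came from skin tumours of C57BL/6 mice treated for more than 24 weeks with the mutagen DMBA and the tumour promoter TPA, so every group carries this treatment. Tumour cells were sorted by flow cytometry on the surface proteins CD34, which marks stem cells of the hair follicle bulge in mouse skin, and integrin alpha 6 (a6, gene Itga6), a laminin receptor of basal keratinocytes. The mice were wild type (WT) or SIRT6 KO (K14-cre; SIRT6 flox/flox), in which the K14 promoter restricts Cre to keratinocytes and other K14-expressing epithelial cells. Each of the 3 sorted populations (CD34+ a6 high, CD34- a6 high and CD34- a6 low) gave 2 KO and 3 WT libraries, 15 in all. Whether the libraries of a group stem from different animals is not in the labels. The p-values therefore rest on the spread among these libraries, which may be partly technical.

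Libraries held 10.08 to 28.62 M gene counts (M stands for 1000000; median 20.27 M). Libraries labelled KO were deeper (19.78 to 28.62 M) than WT libraries (10.08 to 21.56 M). No-feature reads overlapped no counted feature and can lie in introns or between genes. They made up 3.75% to 5.13% of the records in libraries labelled KO and 2.61% to 4.47% in WT. The targeted gene did not separate the genotypes: Sirt6 stood at 5.07 to 8.53 CPM (counts per 1000000, on TMM-scaled library sizes) in the 6 KO libraries, against 4.45 to 10.5 CPM in WT (n = 9). Reads were counted over all of its exons and which exons were floxed is not stated, so Sirt6 does not test the genotype label, and "labelled KO" is written below. Cd34 was 163 to 214 CPM in the CD34+ population and at most 40.3 CPM in the other two. Itga6 was 67.9 to 174 CPM in 3 of the CD34- a6 low libraries, but 445 CPM in KO replicate 2 and 471 CPM in WT replicate 1, within the range of 263 to 576 CPM of the 10 a6 high libraries. The 3 libraries of KO replicate 2 also stood apart in the Y-linked gene Ddx3y (51.9 to 74.9 CPM, at most 0.222 CPM in the other 12). KO replicates 1 and 2 thus did not come from the same animal, while Ddx3y does not tell the WT replicates apart. Sex was not balanced between the genotypes, and its part in the genotype values was not tested. Keratinocyte identity was clear in every library, with Krt14 at 28325 to 74974 CPM. T cell and NK cell markers summed to at most 0.581 CPM, fibroblast markers to at most 4.33 CPM, and neutrophil and mast cell markers to at most 1.13 CPM. Melanocyte markers summed to 139 CPM in 1 library, KO replicate 1 of the CD34- a6 low population, where Tyrp1 stood at 63.1 CPM and Dct at 52.8 CPM.

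ATF4 binds DNA as a dimer with C/EBP proteins at a composite element with the core TGATGNAA. This core was searched on both strands of the promoter (250 bases before to 50 after the gene start, RefSeq, build GRCm38.p6) for the 9 members that matched the table by symbol. It occurs in 3.97% of the 32851 promoters of the table, and in 3 of the 9 members. The 3 windows, and the pair in the promoter of Slc7a11, the cystine transporter gene that changed most among the related genes described below, are shown 5′ to 3′ on the gene's strand with the core in capitals. Asns and Slc7a11 lie on the minus strand of chromosomes 6 and 3, Trib3 on the minus strand of chromosome 2 and Chac1 on its plus strand.
Asns, chr6:7693215-7693242, first capital 23 bases before the start: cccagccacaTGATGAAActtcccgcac
Trib3, chr2:152344029-152344056, first capital 15 bases after the start: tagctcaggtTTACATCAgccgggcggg
Chac1, chr2:119351039-119351066, first capital 193 bases before the start: ttccctgccgTTGCATCActcctgccag
Slc7a11, chr3:50443662-50443689, first capital 66 bases before the start: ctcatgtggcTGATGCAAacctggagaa
Slc7a11, chr3:50443643-50443670, first capital 47 bases before the start: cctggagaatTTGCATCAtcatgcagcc
In Trib3, Chac1 and the last of these windows the core reads on the opposite strand.

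A further motif searched was TGACNNNGC, the core of the antioxidant response element bound by NRF2, which shares Slc7a11 and other targets with ATF4. It occurs in 12.4% of the promoters of the table and in 3 of the 9 members, Asns, Sesn2 and Phgdh. The promoter of Slc7a11 searched here held no match to this motif. Slc3a2, the member that differed most clearly between populations, had neither core in its window. The 150 bases before its start (chr19:8713898-8714047, minus strand) are shown because this gene carries the main population difference.
Slc3a2: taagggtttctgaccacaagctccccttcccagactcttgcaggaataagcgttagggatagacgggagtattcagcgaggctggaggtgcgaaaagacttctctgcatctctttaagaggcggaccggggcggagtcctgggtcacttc
A match is a description of the letters and shows no binding.

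The members differed widely in level. Per kilobase of exon and averaged over the 15 libraries, Slc3a2 and Asns were highest (both 147 CPM per kb), followed by Atf4 (112), Psat1 (84.3), Phgdh (81.4), Ddit3 (22.0), Slc7a5 (16.2), Trib3 (10.1), Sesn2 (6.81) and Chac1 (1.56). Every pair of neighbours in this order had overlapping ranges. Phgdh was above Ddit3 in 15 of 15 libraries and Sesn2 above Chac1 in 14 of 15, whereas Slc3a2 was above Asns in only 9 of 15. The response thus spanned abundant enzyme and transporter mRNAs and a Chac1 mRNA that rested on 8 to 150 counts per library.

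**Figure D1:**
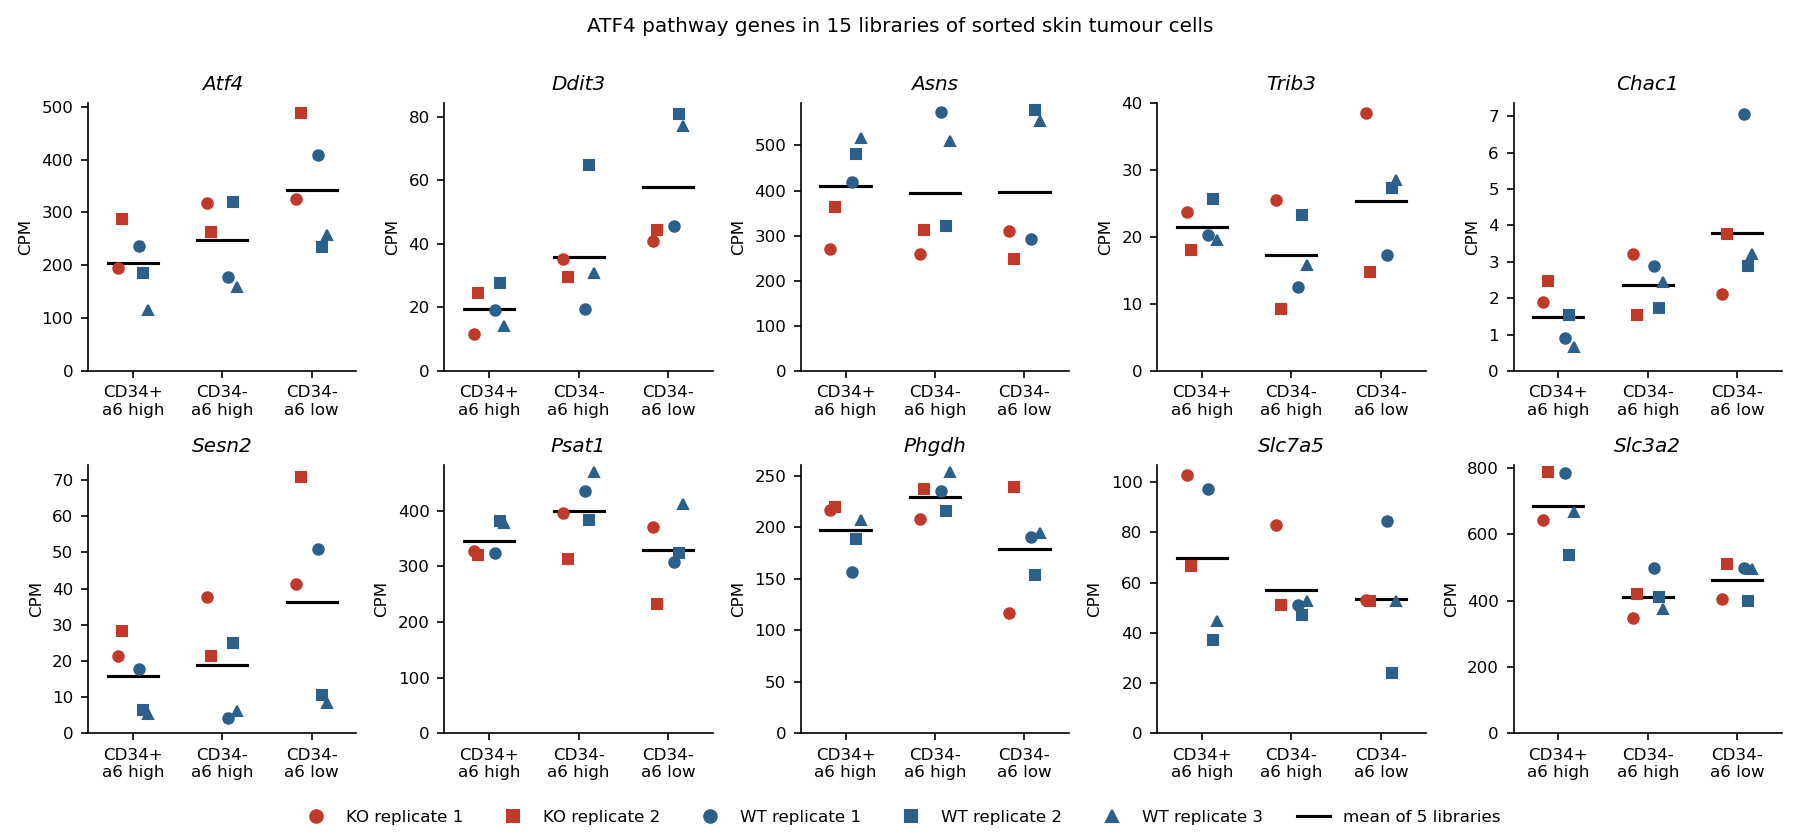
Level of each of the 10 genes (CPM, linear axis from 0) in the 15 libraries, by sorted population (horizontal axis); red, libraries labelled KO, blue, WT; symbols mark the replicate number and bars the mean of 5 libraries. Slc3a2 is higher in all CD34+ a6 high libraries (539 to 788 CPM) than in any other, and Ddit3 is lower in all CD34+ a6 high libraries (11.6 to 27.7 CPM) than in any CD34- a6 low library (41.0 to 81.0 CPM).

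Among the regulators, Ddit3 differed between populations. Ddit3 encodes CHOP, a transcription factor of the late, death-promoting phase of the stress response. In CD34+ a6 high cells Ddit3 measured 11.6 and 24.7 CPM in KO replicates 1 and 2 and 19.2, 27.7 and 14.0 CPM in WT replicates 1 to 3. In CD34- a6 high cells it measured 35.2 and 29.6 CPM in KO and 19.5, 65.0 and 30.8 CPM in WT, and in CD34- a6 low cells 41.0 and 44.4 CPM in KO and 45.5, 81.0 and 77.1 CPM in WT. All 5 CD34+ a6 high libraries lay below all 5 CD34- a6 low libraries, and the CD34- a6 high libraries overlapped with both.

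Ddit3 was 2.8-fold lower in CD34+ a6 high than in CD34- a6 low cells (log2 difference -1.49 ± 0.34 SE, adjusted p = 0.0306, edgeR quasi-likelihood test with Benjamini-Hochberg adjustment), and it was lower by 1.80- to 5.50-fold in 5 of 5 same-numbered pairs. With a replicate block, in population comparisons a term for libraries that share genotype and replicate number, the adjusted p was 0.00649. In this comparison 4.93% of all genes tested passed the threshold, 2.68% as lower and 2.25% as higher, and 1 member of 10 was lower (Ddit3) and 1 higher (Slc3a2). Populations without overlap were found for 3.67% of all genes as lower and 3.25% as higher. The call held without either CD34- a6 low replicate 1 (KO or WT) or WT CD34+ a6 high replicate 2, and was lost without any of the other 7 libraries, with adjusted p-values of 0.053 to 0.149. Over all 10 omissions the difference lay between -1.81 and -1.26. Without the 2 CD34- a6 low libraries of high Itga6 it was -1.57 (adjusted p = 0.0354), and without the 3 libraries of KO replicate 2 it was -1.78 (adjusted p = 0.0888). Between the a6 high populations Ddit3 was lower in CD34+ than in CD34- cells in 5 of 5 pairs but did not pass the threshold (-0.88 ± 0.34, adjusted p = 0.228).

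The exons of Ddit3 overlap those of Mars, the methionyl-tRNA synthetase gene, and of the predicted gene Gm4189 on the opposite strand, and the libraries do not mark strand, so reads of the overlap cannot be assigned. Mars itself stood at 118 ± 11.8, 120 ± 28.7 and 113 ± 14.0 CPM (SD, n = 5) in CD34+ a6 high, CD34- a6 high and CD34- a6 low cells. Its difference between CD34+ a6 high and CD34- a6 low cells was 0.09 ± 0.16 on the log2 scale (adjusted p = 0.798). No other member overlaps another gene's exons in the annotation used.

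Atf4 followed the same order of means as Ddit3 without passing a threshold. It measured 195 and 288 CPM in KO and 236, 185 and 115 CPM in WT libraries of CD34+ a6 high cells, 318 and 263 CPM in KO and 177, 320 and 159 CPM in WT of CD34- a6 high cells, and 325 and 489 CPM in KO and 408, 235 and 258 CPM in WT of CD34- a6 low cells. The populations overlapped. CD34+ a6 high cells were below CD34- a6 low cells in 5 of 5 pairs, with a log2 difference of -0.75 ± 0.27 (adjusted p = 0.128). The other differences were -0.28 ± 0.27 for CD34+ against CD34- a6 high cells (adjusted p = 0.729) and -0.47 ± 0.27 for a6 high against a6 low among CD34- cells (adjusted p = 0.556).

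Trib3, a pseudokinase that ATF4 and CHOP induce and that dampens their activity, showed no population difference past the threshold. Its libraries ranged from 18.1 to 25.7 CPM in CD34+ a6 high, 9.24 to 25.6 CPM in CD34- a6 high and 14.8 to 38.6 CPM in CD34- a6 low cells. The highest value of the 15 was KO replicate 1 in CD34- a6 low cells and the lowest KO replicate 2 in CD34- a6 high cells. The difference between a6 high and a6 low CD34- cells was -0.56 ± 0.33 (adjusted p = 0.581). The values for CD34+ against CD34- a6 high cells and for CD34+ a6 high against CD34- a6 low cells were 0.30 ± 0.33 (adjusted p = 0.768) and -0.26 ± 0.33 (adjusted p = 0.707).

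None of the amino acid enzymes passed the threshold between populations when all libraries were used. Asns encodes asparagine synthetase, Phgdh the enzyme that opens serine synthesis from glycolysis, and Psat1 the transaminase of the next step. Asns averaged 410 ± 97.4, 395 ± 137 and 397 ± 156 CPM (SD, n = 5) in CD34+ a6 high, CD34- a6 high and CD34- a6 low cells. Its log2 differences were 0.08 ± 0.21, 0.01 ± 0.21 and 0.09 ± 0.21 in the CD34, the a6 and the CD34+ a6 high against a6 low comparison (adjusted p = 0.936, 0.998 and 0.861). These differences change sign when single libraries are left out.

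Psat1 averaged 346 ± 30.8, 400 ± 59.5 and 330 ± 68.4 CPM in the same order, and Phgdh 198 ± 26.0, 230 ± 18.5 and 179 ± 46.1 CPM. Both had their highest mean in CD34- a6 high cells, and the libraries of all 3 populations overlapped. Between a6 high and a6 low CD34- cells Psat1 differed by 0.27 ± 0.16 (adjusted p = 0.57) and Phgdh by 0.35 ± 0.18 (adjusted p = 0.508). In the other comparisons Psat1 differed by -0.19 ± 0.16 (CD34, adjusted p = 0.66) and 0.08 ± 0.16 (CD34+ a6 high against a6 low, adjusted p = 0.823), and Phgdh by -0.19 ± 0.18 (adjusted p = 0.726) and 0.16 ± 0.18 (adjusted p = 0.65).

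Phgdh is the member whose call turned on the 2 CD34- a6 low libraries whose Itga6 lay within the a6 high range. Phgdh measured 239 CPM in KO replicate 2 and 191 CPM in WT replicate 1 of that population, and 117, 154 and 195 CPM in its other libraries. Without that pair of libraries Phgdh was higher in a6 high than in a6 low CD34- cells (0.68 ± 0.15, adjusted p = 0.0479). With all libraries 1 of the 14652 genes (0.00683%) and none of the 10 members passed the threshold in this comparison, while 1621 genes had an unadjusted p under 0.05. Without the pair 342 genes and 1 member passed it. DESeq2 on all libraries called 232 genes and no member.

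Slc3a2 was the member that separated CD34+ cells from both CD34- populations. Slc3a2 encodes the heavy chain CD98hc (4F2hc), a membrane glycoprotein that carries several amino acid transporters to the cell surface and also binds integrin beta chains. It measured 645 and 788 CPM in KO and 787, 539 and 669 CPM in WT libraries of CD34+ a6 high cells. In CD34- a6 high cells it measured 348 and 419 CPM in KO and 500, 411 and 375 CPM in WT, and in CD34- a6 low cells 404 and 510 CPM in KO and 498, 400 and 495 CPM in WT. The lowest CD34+ a6 high library lay above the highest CD34- library, and the CD34- populations overlapped with each other.

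Slc3a2 was 1.7-fold higher in CD34+ than in CD34- cells of the a6 high gate (log2 difference 0.77 ± 0.15, adjusted p = 0.0318), by 1.31- to 1.88-fold in 5 of 5 same-numbered pairs. With the replicate block the adjusted p was 0.00641. In this comparison 1.17% of all genes tested passed the threshold, 0.846% as higher and 0.321% as lower, and Slc3a2 was the single member of 10. With the block 5.41% did, and of the members again Slc3a2. Groups without overlap and higher in CD34+ cells were found for 2.56% of all genes. Slc3a2 was also 1.5-fold higher in CD34+ a6 high than in CD34- a6 low cells (0.58 ± 0.15, adjusted p = 0.0475, 0.0116 with the block), by 1.35- to 1.60-fold in 5 of 5 pairs. These comparisons share the CD34+ libraries. Between a6 high and a6 low CD34- cells it differed by -0.18 ± 0.15 (adjusted p = 0.722).

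The size of the Slc3a2 difference moved little when single libraries were left out, between 0.69 and 0.84 in the CD34 comparison and between 0.50 and 0.67 against CD34- a6 low cells. The calls did not hold as well. In the CD34 comparison the adjusted p was 0.0422 without WT CD34- a6 high replicate 1 and 0.0223 without WT CD34+ a6 high replicate 2. Without any of the other 8 libraries it lay above the threshold, up to 0.15. Against CD34- a6 low cells the call held only without WT CD34+ a6 high replicate 2 (adjusted p = 0.0425). It was lost without any of the other 9 libraries, with adjusted p-values up to 0.157. Without the 2 CD34- a6 low libraries of high Itga6 this difference was 0.70 (adjusted p = 0.047). Without the 3 libraries of KO replicate 2 the differences were 0.76 and 0.60 (adjusted p = 0.163 and 0.182).

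**Figure D2:**
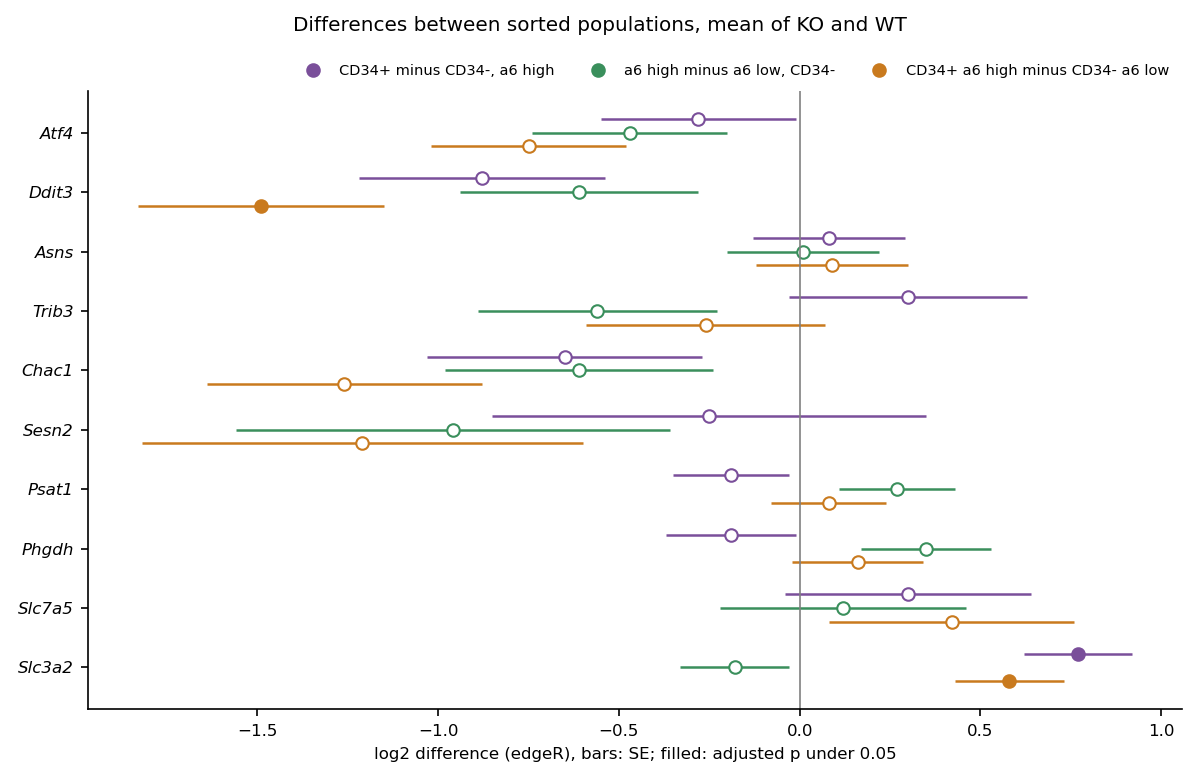
Log2 difference between sorted populations (horizontal axis, mean of KO and WT, edgeR) with its SE (bars) for each of the 10 genes and 3 comparisons; filled points passed an adjusted p of 0.05. Filled points are Slc3a2 in both comparisons of CD34+ cells (0.77 and 0.58) and Ddit3 in CD34+ a6 high against CD34- a6 low cells (-1.49).

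CD98hc works as a pair with a light chain, and the light chain decides which amino acids are carried. Slc7a5 encodes LAT1, the light chain for large neutral amino acids such as leucine. Slc7a5 passed the threshold in none of the population comparisons. It measured 103 and 66.7 CPM in KO and 97.5, 37.2 and 44.7 CPM in WT libraries of CD34+ a6 high cells, 82.8 and 51.2 CPM in KO and 51.0, 46.9 and 52.5 CPM in WT of CD34- a6 high cells, and 52.9 and 52.5 CPM in KO and 84.5, 24.0 and 52.8 CPM in WT of CD34- a6 low cells. CD34+ cells were higher than CD34- a6 high cells in 3 of 5 pairs and lower in 2, both WT, and the populations overlapped. The log2 differences were 0.30 ± 0.34 (CD34, adjusted p = 0.781), 0.12 ± 0.34 (a6, adjusted p = 0.941) and 0.42 ± 0.34 (CD34+ a6 high against a6 low, adjusted p = 0.512). Across the 15 libraries, which share 5 combinations of genotype and replicate number, the correlation of Slc7a5 with Slc3a2 was 0.37.

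Slc7a11 encodes xCT, the light chain that imports cystine for glutathione in exchange for glutamate, and is itself an ATF4 target. It measured 148 and 117 CPM in KO and 72.9, 9.38 and 43.5 CPM in WT libraries of CD34+ a6 high cells. In CD34- a6 high cells it measured 13.6 and 9.55 CPM in KO and 13.8, 2.34 and 7.06 CPM in WT. WT replicate 2 was the lowest in each of these populations, and its CD34+ library lay inside the range of the CD34- libraries. Slc7a11 was 7.92-fold higher in CD34+ than in CD34- a6 high cells (2.98 ± 0.56, adjusted p = 0.0256), by 4.01- to 12.3-fold in 5 of 5 pairs.

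The Slc7a11 call was lost without KO CD34+ a6 high replicate 1, either KO CD34- a6 high library or WT CD34+ a6 high replicate 3 (adjusted p of 0.0546 to 0.131), while the difference stayed between 2.65 and 3.35. Without the 3 libraries of KO replicate 2 it was 2.95 (adjusted p = 0.152). In CD34- a6 low cells Slc7a11 measured 40.7 and 14.9 CPM in KO and 12.2, 13.8 and 10.7 CPM in WT. CD34+ a6 high cells were higher than these in 4 of 5 pairs (2.02 ± 0.54). The adjusted p, 0.05 after rounding, was not under the threshold, and it was 0.0187 with the replicate block.

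Slc7a8, the LAT2 light chain, measured 88.3 and 77.8 CPM in KO and 87.3, 38.0 and 75.7 CPM in WT libraries of CD34+ a6 high cells, against 19.1 and 42.7 CPM in KO and 10.1, 8.07 and 10.6 CPM in WT of CD34- a6 high cells. It lay just outside the threshold (2.12 ± 0.49, adjusted p = 0.0576) and inside it with the replicate block (adjusted p = 0.00901). In CD34- a6 low cells Slc7a8 ranged from 9.21 to 67.1 CPM, with KO replicate 2 highest. Its difference from CD34+ a6 high cells was 1.38 ± 0.47 (adjusted p = 0.116, 0.017 with the block).

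**Figure D3:**
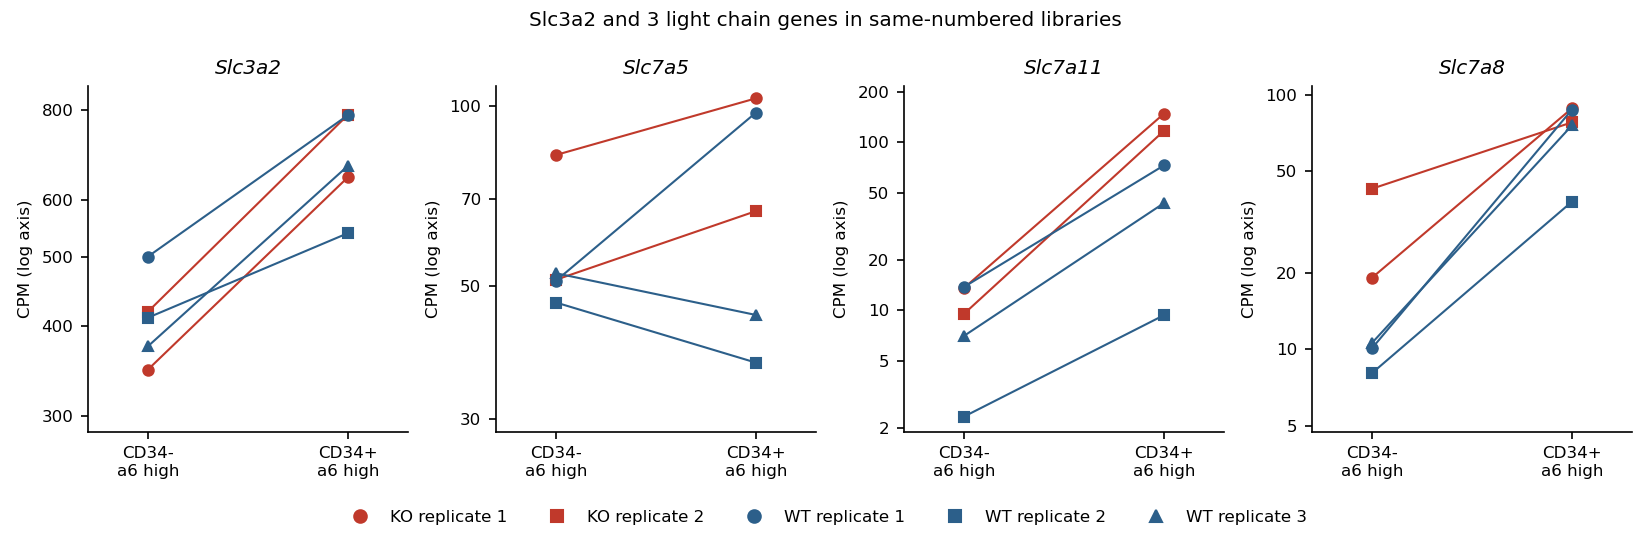
Level (CPM, log axis) of Slc3a2 and of the light chain genes Slc7a5, Slc7a11 and Slc7a8 in CD34- and CD34+ libraries of the a6 high gate; lines join libraries of the same genotype and replicate number. Slc3a2, Slc7a11 and Slc7a8 are higher in CD34+ cells in 5 of 5 pairs and Slc7a5 in 3 of 5.

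The stress outputs had their highest means in CD34- a6 low cells. Chac1, an enzyme that degrades glutathione, averaged 1.49 ± 0.733, 2.36 ± 0.728 and 3.81 ± 1.91 CPM in CD34+ a6 high, CD34- a6 high and CD34- a6 low cells. The highest library was WT replicate 1 in CD34- a6 low cells (7.05 CPM, 150 counts) and the lowest WT replicate 3 in CD34+ a6 high cells (0.656 CPM, 8 counts). Chac1 was lower in CD34+ a6 high than in CD34- a6 low cells in 5 of 5 pairs without passing the threshold (-1.26 ± 0.38, adjusted p = 0.0752). DESeq2 gave it the same difference with an adjusted p of 0.0189. The other differences were -0.65 ± 0.38 (CD34, adjusted p = 0.474) and -0.61 ± 0.37 (a6, adjusted p = 0.594).

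Sesn2, sestrin 2, is a leucine sensor that restrains mTORC1 when amino acids are short. It measured 21.2 and 28.2 CPM in KO and 17.8, 6.47 and 5.33 CPM in WT libraries of CD34+ a6 high cells, 37.6 and 21.2 CPM in KO and 4.25, 24.8 and 5.98 CPM in WT of CD34- a6 high cells, and 41.3 and 70.9 CPM in KO and 50.9, 10.4 and 8.40 CPM in WT of CD34- a6 low cells. KO libraries and WT replicate 1 or 2 were the high ones, and the populations overlapped. CD34+ a6 high cells were below CD34- a6 low cells in 5 of 5 pairs (-1.21 ± 0.61, adjusted p = 0.272). The differences were -0.25 ± 0.60 in the CD34 comparison (adjusted p = 0.925) and -0.96 ± 0.60 in the a6 comparison (adjusted p = 0.608).

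Sesn1, the paralogue of Sesn2 best known as a p53 target, had its highest mean in CD34- a6 high cells. It measured 17.2 and 26.4 CPM in KO and 16.0, 23.3 and 17.6 CPM in WT libraries of CD34+ a6 high cells, and 33.7 and 76.9 CPM in KO and 30.8, 33.3 and 21.7 CPM in WT of CD34- a6 high cells. In CD34- a6 low cells it measured 23.4 and 26.4 CPM in KO and 20.9, 29.8 and 25.5 CPM in WT. Its CD34 difference was -0.97 ± 0.24 (adjusted p = 0.0755, 0.0159 with the replicate block) and its a6 difference 0.66 ± 0.24 (adjusted p = 0.363).

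Over the 10 members the median log2 difference was -0.19 in the CD34 comparison, -0.32 in the a6 comparison and -0.09 between CD34+ a6 high and CD34- a6 low cells, beside -0.02 over all genes tested in each. Of the called members, Slc3a2 was higher in CD34+ a6 high cells than in both CD34- populations. Ddit3 was called lower in CD34+ a6 high cells against CD34- a6 low cells only, and not against CD34- a6 high cells. Markers of other cells also differed between populations. Macrophage and dendritic markers, of which 9 of 10 were tested, summed to 21.1 to 47.8 CPM in CD34+ a6 high, 9.36 to 129 CPM in CD34- a6 high and 32.0 to 186 CPM in CD34- a6 low libraries, and 4 of the 9 (Lyz2, Tyrobp, C1qa and C1qb) were lower in CD34+ a6 high than in CD34- a6 low cells. A further one, Cd68, was higher in CD34+ than in CD34- a6 high cells (1.14 ± 0.21, adjusted p = 0.0254). Csf1r and Adgre1 were at 0 in 6 libraries each and at most 1.74 and 0.545 CPM. Suprabasal keratinocyte markers summed to 1063 to 6691, 2094 to 10434 and 3976 to 23259 CPM in the same order. The summed level of endothelial markers was 10.7 to 65.3 CPM in CD34+ and 2.68 to 7.75 CPM in CD34- libraries of the a6 high gate, which did not overlap, and 4.07 to 22.7 CPM in CD34- a6 low libraries. All 6 tested of the 8 had higher values in CD34+ than in CD34- a6 high cells (median log2 difference 3.28), none passed the threshold, and Plvap (adjusted p = 0.0493) and Tie1 (adjusted p = 0.0484) did with the replicate block. Cdh5 was at 0 in 7 of the 15 libraries and Tek in 8. The part of all these markers in the Ddit3, Slc3a2 and Slc7a11 differences was not tested, and in bulk RNA fewer cells of a type and less RNA per cell cannot be told apart.

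No member passed the threshold between genotypes, in any population or in counts summed over the populations for each genotype and replicate number. In each population 1 gene of 14652 did (0.00683%), and in the sums 1 of 15597 (0.00641%). An unadjusted p under 0.05 was found for 1112, 1405 and 687 genes in CD34+ a6 high, CD34- a6 high and CD34- a6 low cells and for 1656 genes in the sums, and DESeq2 called 25, 33, 6 and 136 genes, none of them a member. Values of KO and WT libraries did not overlap for 4 members in CD34+ a6 high cells (Asns, Chac1, Sesn2 and Phgdh), for 1 in CD34- a6 high cells (Asns) and for 1 in CD34- a6 low cells (Ddit3). With 2 libraries against 3, this was so for 28.1%, 30.2% and 14.9% of all genes tested, and over all 15 libraries no member separated the genotypes (0.744% of all genes did).

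Asns, asparagine synthetase, had a lower mean in libraries labelled KO in each population. In CD34+ a6 high cells it measured 271 and 363 CPM in KO and 419, 481 and 516 CPM in WT, in CD34- a6 high cells 260 and 313 CPM against 573, 322 and 509 CPM, and in CD34- a6 low cells 311 and 249 CPM against 293, 578 and 553 CPM. WT replicate 1 of the CD34- a6 low population was the single WT library inside the KO range of its population. Over all libraries the mean was 294 ± 42.9 CPM in KO (n = 6) and 472 ± 105 CPM in WT (n = 9). The log2 differences were -0.57 ± 0.31, -0.71 ± 0.31 and -0.76 ± 0.31 (adjusted p = 0.656, 0.518 and 0.865), and -0.64 ± 0.18 in the sums (adjusted p = 0.461, unadjusted p = 0.00891).

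Sesn2 and Atf4 had higher means in libraries labelled KO. Sesn2 averaged 36.7 ± 18.7 CPM in KO and 14.9 ± 15.1 CPM in WT, with log2 differences of 1.32 ± 0.84, 1.32 ± 0.83 and 1.26 ± 0.83 in the 3 populations (adjusted p = 0.674, 0.591 and 0.865) and 1.16 ± 0.51 in the sums (adjusted p = 0.472). Atf4 averaged 313 ± 98.1 CPM in KO and 233 ± 89.3 CPM in WT. Its differences were 0.43 ± 0.37, 0.41 ± 0.37 and 0.44 ± 0.37 (adjusted p = 0.738, 0.704 and 0.865) and 0.36 ± 0.22 in the sums (adjusted p = 0.55). Over all 15 libraries the ranges of the genotypes overlapped for both genes, while in CD34+ a6 high cells those of Sesn2 did not.

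Chac1 was higher in both KO libraries of CD34+ a6 high cells (1.89 and 2.47 CPM) than in the WT libraries (0.909, 1.53 and 0.656 CPM), a difference of 1.07 ± 0.53 with an adjusted p of 0.652. Ddit3 was lower in both KO libraries of CD34- a6 low cells than in the WT libraries (-0.67 ± 0.48, adjusted p = 0.865), and differed by -0.46 ± 0.29 in the sums (adjusted p = 0.564). In the same population all 4 tested of the 5 melanocyte markers had higher fitted values in KO (median log2 difference 4.7, unadjusted p under 0.05 in all 4, adjusted p = 0.865). Macrophage and dendritic markers had higher fitted values in KO for 8 of the 9 tested in each population. Their median log2 differences were 3.76, 2.09 and 1.15 in CD34+ a6 high, CD34- a6 high and CD34- a6 low cells. Of the 9, 5, 4 and 1 had an unadjusted p under 0.05 (edgeR), and none passed the threshold. They summed to 33.2 to 186 CPM in KO and 9.36 to 104 CPM in WT libraries. Of 6 tested endothelial markers, 5 had lower fitted values in KO in each population. The part of these markers in the genotype values was not tested. Whether genotype differences themselves differed between populations was tested by interaction terms. No gene of 14652 passed the threshold with edgeR, for CD34 (159 genes at unadjusted p under 0.05, 1 call with DESeq2) or for a6 (168 genes). Chac1 had the smallest member p in both, with an interaction of 1.05 ± 0.75 for CD34 (unadjusted p = 0.186) and 0.61 ± 0.74 for a6 (unadjusted p = 0.424).

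**Figure D4:**
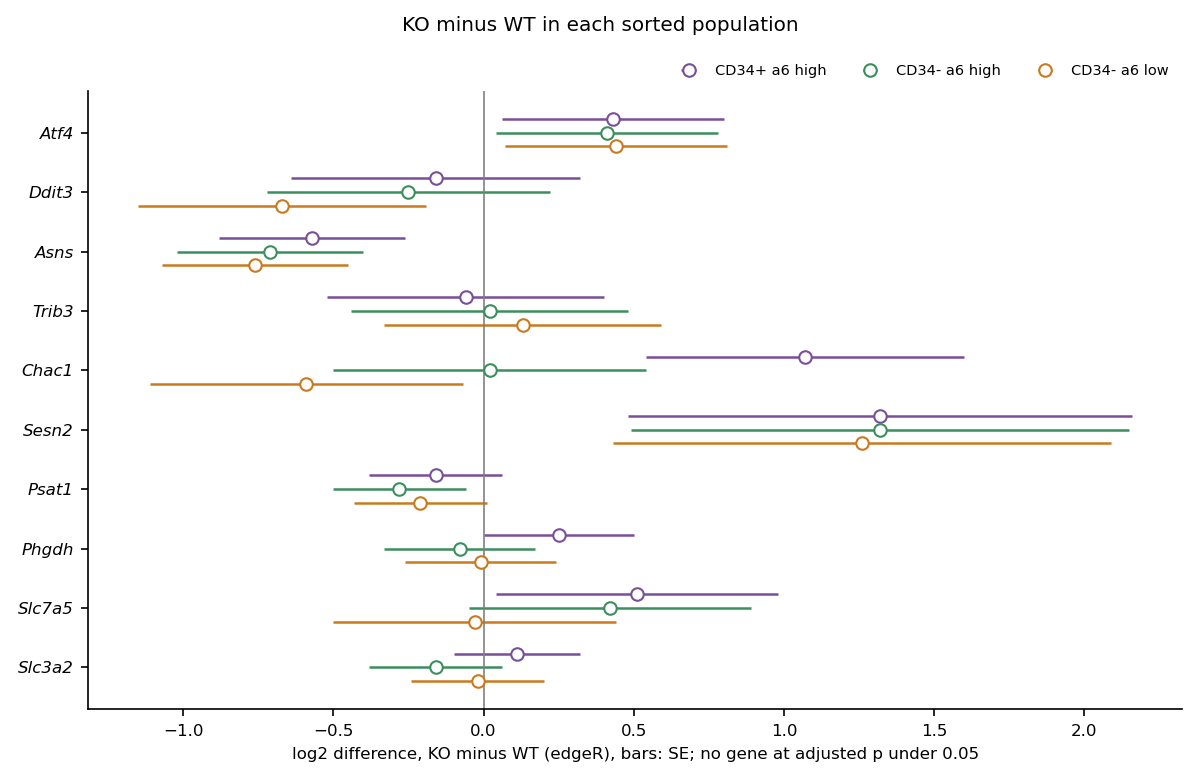
Log2 difference of libraries labelled KO minus WT (horizontal axis, edgeR) with its SE (bars) for each of the 10 genes in 3 sorted populations; open points did not pass an adjusted p of 0.05. Asns lies below 0 (-0.57, -0.71 and -0.76) and Sesn2 above 0 (1.32, 1.32 and 1.26) in each population, and every point is open.

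These genes also followed a property of the libraries. Across the 15 libraries, which share 5 combinations of genotype and replicate number, log2 levels were correlated with the share of no-feature reads. The correlations were 0.85 for Sesn2, 0.81 for Atf4, -0.85 for Psat1 and -0.73 for Asns. A correlation at least as far from 0 was found for 2.07%, 4.31%, 2.13% and 11.8% of the 14652 genes. With the gene counts per library Asns correlated at -0.84 and Sesn2 at 0.82. Among the 9 WT libraries, the 5 with 2.61% to 3.32% of no-feature reads held 4.25 to 8.40 CPM of Sesn2. The 4 with 4.05% to 4.47% held 10.4 to 50.9 CPM. The 6 KO libraries, at 3.75% to 5.13%, held 21.2 to 70.9 CPM. The part of this share and of depth in the genotype values was not tested. Slc3a2 and Ddit3 correlated with the share at 0.06 and 0.26.

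**Figure D5:**
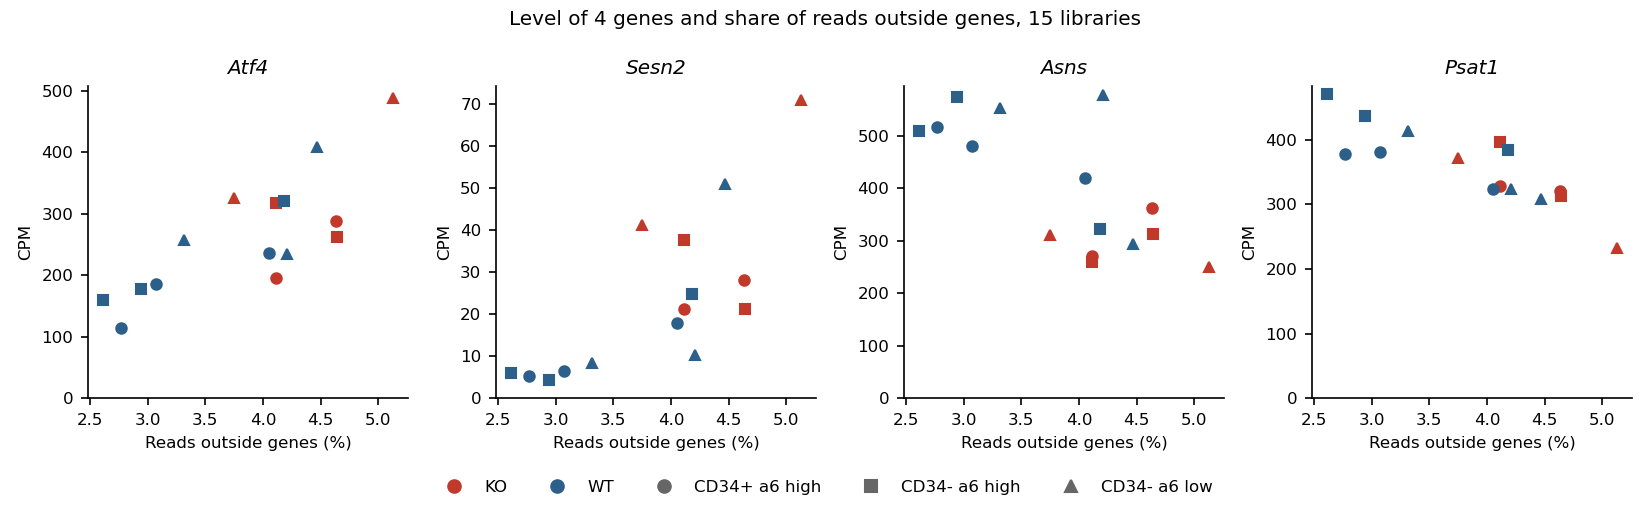
Level of Atf4, Sesn2, Asns and Psat1 (CPM, vertical axis from 0) against the share of no-feature reads in the 15 libraries. The share is in percent on the horizontal axis, where it is labelled as reads outside genes. Red marks libraries labelled KO, blue WT, and symbols mark the sorted population. Atf4 and Sesn2 are high and Asns and Psat1 low where the share is high (correlations of log2 levels 0.81, 0.85, -0.73 and -0.85). KO libraries (3.75% to 5.13%) reach further to the right than WT libraries (2.61% to 4.47%), and the ranges overlap.

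Members also differed in how they varied with each other. Over the 15 libraries Atf4 correlated with Sesn2 at 0.89, with Chac1 at 0.63 and with Ddit3 at 0.56, but with Asns at -0.69 and with Psat1 at -0.60. Asns and Sesn2 ran opposite at -0.90, and Trib3 and Phgdh at -0.72. The genes most like the mean of the members, by correlation of log2(CPM + 1) centred per gene over the same libraries, were Mafk (0.92), Fbxo33 (0.90), Herc4 (0.89), Ppp1r15b (0.88) and Mef2d (0.88). Ppp1r15b encodes a regulatory subunit of the eIF2alpha phosphatase.

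Other genes were taken from 9 lists of 87 genes, of which 85 were tested. The lists reach beyond the ATF4 pathway. They include 14 genes of the IRE1 and ATF6 branches of the unfolded protein response. Also included are 9 paralogues of members or light chains of Slc3a2, and 10 immediate early and dissociation genes. In the CD34 comparison 1 of the 85 was higher (Slc7a11) and none lower, where 0.846% and 0.321% of all genes were. With the replicate block 3 were higher and 1 lower, where 3.33% and 2.08% of all genes were. The blocked calls were Slc7a11, Slc7a8 and Bbc3 as higher and Sesn1 as lower. Bbc3, which encodes the pro-apoptotic protein PUMA, differed by 0.67 ± 0.23 (adjusted p = 0.164, 0.0364 with the block). None of the 6 partner and downstream transcription factors or 11 serine, proline and one-carbon enzymes passed the threshold. Nor did any of the 13 tRNA synthetase and tRNA export genes or 14 genes of the IRE1 and ATF6 branches. Closest by p were Atf3 (-0.76 ± 0.41, adjusted p = 0.441), the proline enzyme gene Aldh18a1 (-0.33 ± 0.13, adjusted p = 0.251), the cysteinyl-tRNA synthetase gene Cars (0.50 ± 0.22, adjusted p = 0.3) and Calr, calreticulin (0.28 ± 0.16, adjusted p = 0.477).

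Between CD34+ a6 high and CD34- a6 low cells 4 of the 85 were lower and none higher, where 2.68% and 2.25% of all genes were. With the block 8 were lower and 6 higher, where 6.15% and 5.68% of all genes were (11.8% in all). The 4 were lower in CD34+ a6 high cells, like Ddit3. Ppp1r15a, the stress-induced subunit of the eIF2alpha phosphatase also called GADD34, averaged 187 ± 68.9, 228 ± 60.1 and 330 ± 63.3 CPM in CD34+ a6 high, CD34- a6 high and CD34- a6 low cells (-0.91 ± 0.19, adjusted p = 0.0202). Cebpg, a dimer partner of ATF4, averaged 68.0 ± 7.71, 72.3 ± 5.33 and 103 ± 29.0 CPM (-0.61 ± 0.15, adjusted p = 0.0432). Xbp1, the transcription factor of the IRE1 branch of the unfolded protein response, averaged 135 ± 38.5, 156 ± 29.4 and 264 ± 69.7 CPM (-1.03 ± 0.21, adjusted p = 0.021). Dnajb9, a chaperone gene that XBP1 controls, averaged 23.5 ± 4.94, 24.1 ± 5.56 and 41.9 ± 7.25 CPM (-0.83 ± 0.22, adjusted p = 0.0475).

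In the a6 comparison none of the 85 passed the threshold. Among the smaller p-values there were those of Xbp1 (-0.80 ± 0.21, adjusted p = 0.231, 0.0495 with the replicate block), Dnajb9 (-0.81 ± 0.22, adjusted p = 0.238), Cebpb (-0.52 ± 0.15, adjusted p = 0.264), Cebpg (-0.52 ± 0.15, adjusted p = 0.267) and Ppp1r15a (-0.61 ± 0.19, adjusted p = 0.274), all with lower values in a6 high cells. Aldh18a1 (0.44 ± 0.13, adjusted p = 0.272) and Shmt1, a one-carbon enzyme gene (0.46 ± 0.15, adjusted p = 0.297), had higher values there. Immediate early and dissociation genes, which rise when tissue is taken apart, summed to 10858 to 19543 CPM in CD34+ a6 high, 13497 to 22899 CPM in CD34- a6 high and 13838 to 19913 CPM in CD34- a6 low libraries, and none of the 10 passed the threshold in any of the 3 population comparisons. Of the 10, 8 had lower fitted values in CD34+ a6 high than in CD34- a6 low cells (median log2 difference -0.3). An unadjusted p under 0.05 (edgeR) was found for 3 of the 10 there, and for 21.6% of all genes. Against CD34- a6 high cells 8 of the 10 were also lower in CD34+ cells (median -0.28). With the replicate block Junb was lower in CD34+ a6 high than in CD34- a6 low cells (adjusted p = 0.031). The part of these genes in the Ddit3 difference was not tested. Between genotypes none of the 85 passed it in any population, nor did any of the 84 tested in the sums.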

How the data were processed

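RNA of sorted tumour cells was copied to cDNA with SMART-Seq v4, per the labels' protocols, a kit that does not mark strand. The authors deposited unnormalized counts, 1 whole number for each Ensembl gene. The submitters' processing notes name STAR 2.3.0, Picard 1.100, HTSeq 0.6.0 and build mm9, with no role, while the gene annotation was not given in the sources used here. In each library 5 rows without a gene were dropped. Of the records, 29.86% to 38.04% were reads aligned to several places, 2.61% to 5.13% no-feature reads and 1.86% to 2.2% ambiguous reads. Each library held 10.08 to 28.62 M gene counts.

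Symbols and exon lengths come from GENCODE M21, a later build, and promoters from RefSeq (GRCm38.p6). The test was edgeR 4.0.16 under R 4.3.3 (quasi-likelihood F test, TMM, filterByExpr) in 1 fit of all 15 libraries with 6 group coefficients, with Benjamini-Hochberg adjustment over all genes at 0.05. SEs were derived from the F statistic. Population comparisons average KO and WT. KO against WT overall was fitted to sums over the populations of each replicate (15597 genes). The code was tested on simulated data.

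The members and lists were chosen with earlier results of these data known. The naming rule takes all members, per other list up to 3 genes of smallest p in the CD34 comparison and up to 2 in the a6 comparison, and the 5 genes most like the members' mean (logCPM of at least 2). Same-numbered libraries of a genotype correlated in their deviations from group means at 0.104 to 0.53 (CD34+ and CD34- a6 high) and 0.273 to 0.589 (CD34+ a6 high and a6 low). They were taken as pairs, a pairing read from the data, with both KO pairs giving 1 value. CD34- a6 high and a6 low libraries (-0.0124 to 0.466) and KO and WT libraries (-0.501 to 0.105) were not. The replicate block was still fitted for these comparisons as an alternative. The main fit had no pair term in any comparison. Alternatives were DESeq2 1.42.0, its size factors, no filter, a filter of 10 CPM in 2 libraries, only the compared groups, a replicate block and leaving out each library.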

Additional observations from a re-analysis of the deposited data

Results flagged for a closer look

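Slc7a5 measured 82.8 CPM in KO replicate 1 of the CD34- a6 high population, where the other 4 libraries held 46.9 to 52.5 CPM. The gap to the nearest library was large against the range of the group. This was 1 of 30 groups of 5 libraries examined for the members, and chance alone marks about 1 in 20. KO replicate 1 also had the highest Slc7a5 level of the CD34+ a6 high population (103 CPM), but in CD34- a6 low cells it stood at 52.9 CPM.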

How the results depend on the processing

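The alternatives gave 770 values over 49 of the results reported here for members and Slc7a11. Of these values 704 kept their direction and their side of the threshold, 33 lost a call, 11 gained one and 22 changed sign, 16 of these on leaving out 1 library. DESeq2's size factors in edgeR changed no count of called genes by over 1.5 times. Genes called (CD34, a6, CD34+ a6 high against a6 low, KO against WT in CD34+ a6 high, CD34- a6 high, CD34- a6 low and sums) numbered 171, 1, 722, 1, 1, 1 and 1. DESeq2 gave 846, 232, 1579, 25, 33, 6 and 136, and 1 in the CD34 interaction. Without a filter on low counts they were 1242, 602, 1900, 195, 256, 156 and 6, with 20 and 13 in the interactions, and members called rose to 2 in the CD34 comparison (Ddit3, adjusted p = 0.0157) and 5 against CD34- a6 low cells (Atf4, Chac1 and Sesn2 added). The filter of 10 CPM gave 3 in the a6 comparison. With only the compared groups the CD34, a6 and CD34+ a6 high against a6 low counts were 311, 0 and 422, and those of KO against WT in CD34+ a6 high and CD34- a6 low cells 2 and 0. In this setting 1 member was called against CD34- a6 low cells (Ddit3, adjusted p = 0.0322), and Slc3a2 lost its call there (adjusted p = 0.0816). The cause was not tested.

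With the replicate block 793, 60 and 1733 genes were called in the CD34, a6 and CD34+ a6 high against a6 low comparisons. For KO against WT the block was a term for the replicate number alone, which KO and WT libraries share. It gave 2 genes in each population and 0 in the sums. The number of members called was the same as without the block. Among member results and Slc7a11, the block changed the call of Slc7a11 against CD34- a6 low cells (1.85, adjusted p = 0.0187) and no other.

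On leaving out each library, genes called ranged from 7 (without KO CD34- a6 high replicate 1) to 258 (without WT CD34+ a6 high replicate 2) for CD34, 41 (without KO CD34+ a6 high replicate 1) to 691 against CD34- a6 low cells, 1 to 50 for a6, 1 to 2 for KO against WT in CD34+ a6 high and CD34- a6 high cells, 1 to 1 in CD34- a6 low cells, 0 to 10 in the sums and 0 in the interactions. Members called ranged from 0 to 1 for CD34 and 0 to 2 against CD34- a6 low cells. Signs changed for Asns (-0.03 to 0.18, -0.12 to 0.11 and -0.04 to 0.18 in the CD34, a6 and CD34+ a6 high against a6 low comparisons), Sesn2 (CD34, -0.62 to 0.36), Slc7a5 (a6, -0.07 to 0.36), Trib3, Psat1 and Phgdh (CD34+ a6 high against a6 low, -0.52 to 0.17, -0.07 to 0.26 and -0.05 to 0.47) and the a6 interaction of Chac1 (-0.02 to 1.09).

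Chosen after seeing the data, leaving out the pair of a6 low libraries with high Itga6 gave 342 genes and 1 member (Phgdh) for a6. Asns then stood at -0.19 for a6 and -0.12 against CD34- a6 low cells, and Psat1 at -0.11. Also chosen then, leaving out the 3 libraries of KO replicate 2 gave 32, 0 and 116 genes in the population comparisons, 4 and 6 for KO against WT in CD34- a6 high and CD34- a6 low cells, and 0 members for CD34 and against CD34- a6 low cells. The calls of Slc3a2, Slc7a11 and Ddit3 were lost, and Asns stood at -0.14 for a6 and -0.10 against CD34- a6 low cells, and Psat1 at -0.06. Fewer libraries enter this fit, and KO rests on 1 library a group, which is assumed to vary like the other groups.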
